A study of Homo sapiens with 6 samples.

Results

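The genes described here encode tissue factor, its Kunitz-type inhibitors, the cofactors of the protein C pathway and the protease-activated receptors through which clotting proteases signal to cells. They were chosen by gene symbol in the deposited count table as F3, TFPI, TFPI2, THBD, PROS1, F2R, F2RL1 and F2RL2, which makes 8 of the 56478 gene rows used. RNA was sequenced from BT20, an established human breast cancer cell line labelled as triple negative. A first group of 3 libraries, shCK5-22, came from cells with the short hairpin vector pLK0-shCK5-425222 against cytokeratin 5, the product of KRT5. The other 3 libraries, shControl, came from cells with the vector pLK0-shControl. All cells grew in a medium with fetal bovine serum and received no further treatment. Each arm had 1 hairpin, and the labels do not say whether the cells were clones or pools.

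Tissue factor is a membrane receptor that binds factor VIIa and so starts the extrinsic pathway of coagulation, and many carcinoma cells carry it at high levels. Tissue factor pathway inhibitor blocks that complex, while thrombomodulin and protein S act with protein C to switch the cascade off. Protease-activated receptors are G protein-coupled receptors that a protease switches on by cutting their extracellular end. Thrombin is the main activator of the receptor encoded by F2R, whereas trypsin-like proteases, matriptase and the tissue factor complex act on that of F2RL1.

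Libraries held between 47703937 and 65541734 counts. KRT5, the targeted gene, had 21.1, 22.7 and 24.1 CPM (the count scaled to library size by the TMM method) in shCK5-22 libraries, against 231, 247 and 244 CPM in shControl libraries, a log2 fold change of -3.41 (SE 0.0448, edgeR quasi-likelihood test, adjusted p = 1.23e-20). All 7 markers of the line were present, and 4 of them, KRT5 included, fell in shCK5-22. EGFR averaged 1300 CPM in shCK5-22 and 1480 CPM in shControl, KRT19 1160 and 1790 CPM, CDH1 429 and 553 CPM, and EPCAM, which did not pass, 236 and 234 CPM in the same groups. Of the receptors that define triple negative tumours, PGR had at most 4 counts in a library, while ESR1 averaged 11.5 and 14.5 CPM and ERBB2 83.8 and 120 CPM in shCK5-22 and shControl libraries. ESR1 (log2 fold change -0.33, edgeR adjusted p = 0.0014) and ERBB2 (log2 fold change -0.52, edgeR adjusted p = 2.4e-10) both passed as lower in shCK5-22. The shCK5-22 libraries were less alike than the shControl libraries. The chi-square per degree of freedom was 33.7 and 19.8 for the pairs with shCK5-22 replicate 1 and 5.08 for the remaining pair, against 3.47 to 4.88 between shControl libraries. Values without shCK5-22 replicate 1 are therefore given for each of the tested genes of the set. From each pathway list, up to 3 called genes averaging 1 CPM or more that changed most were also recomputed. Of these only F12 lost its call without that replicate. Less RNA per cell and fewer cells with the RNA cannot be told apart in such bulk libraries.

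Of the 8 genes, 6 had counts and 2, TFPI2 and F2RL2, were listed at 0 in every library. Each of the 6 had at least 107 counts in every library, so all 6 entered the test. Transcripts of PROS1 and F2R were higher and those of F3 and F2RL1 lower in shCK5-22, while TFPI and THBD did not pass the test. Of all 18008 genes tested, 34.2% passed an adjusted p of 0.05, 17.4% as higher and 16.8% as lower in shCK5-22, so a call alone is common in this comparison. The groups did not overlap for the same 4 genes, where 45.1% of all genes tested showed no overlap. The median log2 fold change of the 6 was -0.13, against -0.006 over all genes tested, and the median size of the change was 0.398 against 0.177.

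**Figure D1:**
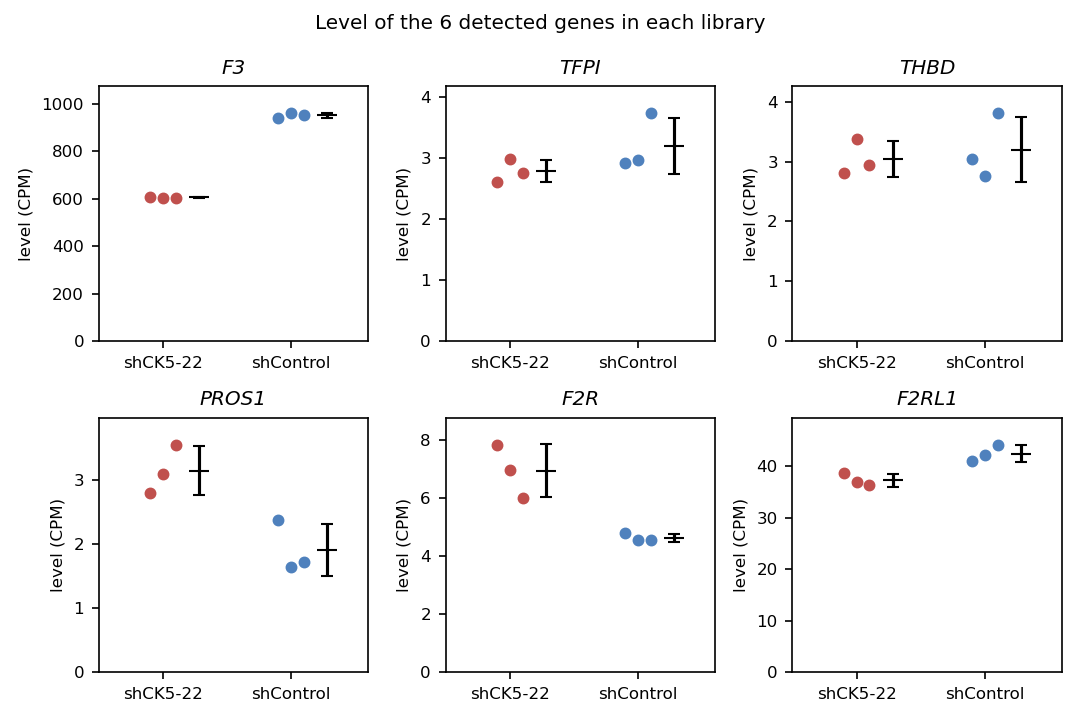
Level in CPM of each of the 6 genes with counts, for the 3 shCK5-22 (red) and 3 shControl (blue) libraries; black marks give the mean and SD. The groups separate for F3, PROS1, F2R and F2RL1 and overlap for TFPI and THBD.

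F3 (ENSG00000117525, chromosome 1, 94529225 to 94541800, minus strand, GRCh38) encodes tissue factor and was by far the most abundant of the genes. Its level was 609, 603 and 605 CPM in shCK5-22 libraries, against 940, 961 and 955 CPM in shControl libraries. Every shCK5-22 library lay well below every shControl library, and libraries within a group were close to one another. Means were 606 ± 2.74 CPM in shCK5-22 and 952 ± 10.7 CPM in shControl (SD, n = 3 each). F3 fell 1.57-fold in shCK5-22 (log2 fold change -0.65, SE 0.0264, 95% interval -0.71 to -0.60, edgeR adjusted p = 5.64e-14). The change rests on 31986 to 39696 counts per shCK5-22 library and 45181 to 62684 per shControl library, and its log2 value was -0.66 without shCK5-22 replicate 1. Its size exceeded that of 88.9% of all genes tested. Per kilobase of annotated exon, F3 remained among the most abundant transcripts, at 211 CPM per kb and rank 116 in shCK5-22 and 331 CPM per kb and rank 76 in shControl, among 15228 genes with a length.

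The F3 promoter is shown because it is a well studied control region whose AP-1 and NF-kB elements were defined in monocytes and endothelial cells. That of F2RL1, the other gene that fell, stands beside it for comparison. Both lines come from RefSeq (GRCh38.p14), run from 250 bases before the RefSeq start site and stop ahead of the first annotated exon base, at chr1:94541801-94542009 (minus strand) and chr5:76818780-76818932 (plus strand). Capitals mark matches to the AP-1 letters TGANTCA and to the letters GGANTTTCC, an NF-kB site of the tissue factor type, searched on both strands. No broader NF-kB pattern was searched.
F3: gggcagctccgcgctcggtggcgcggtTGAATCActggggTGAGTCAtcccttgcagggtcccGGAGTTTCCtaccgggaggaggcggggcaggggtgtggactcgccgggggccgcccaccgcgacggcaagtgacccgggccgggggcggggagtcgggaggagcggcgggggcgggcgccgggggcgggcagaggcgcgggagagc
F2RL1: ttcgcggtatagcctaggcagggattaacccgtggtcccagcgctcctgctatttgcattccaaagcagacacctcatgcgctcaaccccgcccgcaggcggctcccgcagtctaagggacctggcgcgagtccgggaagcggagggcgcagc

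In the F3 line, AP-1 letters lay at 223 to 217 and 210 to 204 bases before the start site and the NF-kB letters at 187 to 179 bases before it. The same stretch held 4 matches to the Sp1 letters GGGCGG, of which the one at 78 to 73 bases overlapped the single match to the EGR1 letters GCGNGGGCG at 82 to 74 bases. The whole 250-base window of F2RL1 held no AP-1 or NF-kB match, 2 Sp1 matches and 1 match to the TEAD letters GGAATG, at 194 to 189 bases. Of its Sp1 matches, the one at 162 to 157 bases lies in the printed line and the one at 77 to 72 bases lies beyond its end. Among 35116 RefSeq promoter windows of the same 250 bases, 6.57% held the AP-1 letters, 1.45% the NF-kB letters, 42.6% the Sp1 letters, 8.41% the EGR1 letters and 11.9% the TEAD letters. Of the other genes of the set, TFPI, TFPI2, PROS1 and F2RL2 were also searched. F2R and THBD had no promoter window in the reference used and were not searched. AP-1 letters lay at 87 to 81 bases in TFPI2 and at 37 to 31 bases in F2RL2, genes without counts in any library. TFPI2 also held 1 EGR1 match and 2 Sp1 matches. The windows of TFPI and PROS1 held no AP-1 match. The AP-1 letters are therefore not particular to F3 within the set. Among the windows searched, only that of F3 held the letters GGANTTTCC. Because those letters describe the tissue factor type of site, the match in F3 was given in advance. Other forms of NF-kB site in these genes were not searched. The windows of TFPI and PROS1 precede RefSeq start sites inside the gene spans given below, so their outer starts were not searched. A match describes the sequence and shows no binding.

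TFPI (ENSG00000003436, chromosome 2, 187464230 to 187565760, minus strand) encodes tissue factor pathway inhibitor, which binds factor Xa and then the factor VIIa complex. Its level was 2.61, 2.98 and 2.76 CPM in shCK5-22 libraries, against 2.91, 2.96 and 3.73 CPM in shControl libraries. The groups overlapped, and the highest value came from a shControl library. TFPI averaged 2.78 ± 0.186 CPM in shCK5-22 and 3.20 ± 0.457 CPM in shControl, and the difference did not pass the test (log2 fold change -0.21, 95% interval -0.51 to 0.095, edgeR adjusted p = 0.305). Without shCK5-22 replicate 1 the log2 value was -0.16. The table gives 1 row per gene, so the alpha and beta isoforms of the inhibitor were not separated. TFPI2 (ENSG00000105825, chromosome 7, 93885396 to 93890991, minus strand), which encodes a related matrix-bound inhibitor of plasmin and trypsin, was listed at 0 in all 6 libraries. A count of 0 allows up to 3 counts, or 0.046 to 0.0624 CPM depending on the library, a limit that covers counting error only. The limit would be higher if mates of a pair were counted separately, as most low counts are even. VKORC1, a widely expressed vitamin K epoxide reductase gene, was listed at 0 as well, so a 0 in this table is not read as absence. Of the exon bases of VKORC1, 34.7% overlap AC135050.2 on the same strand and 58.1% overlap AC135050.7 on the other. Of the exon bases of TFPI2, no overlapping gene covers more than 2.95%. How reads in such overlaps were counted is not stated, and the part of overlap in these values was not tested.

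THBD (ENSG00000178726, chromosome 20, 23045633 to 23049741, minus strand) encodes thrombomodulin, the cell surface receptor that turns thrombin into an activator of protein C. Its level was 2.81, 3.38 and 2.95 CPM in shCK5-22 libraries, against 3.04, 2.76 and 3.81 CPM in shControl libraries. Both the highest and the lowest value belonged to shControl libraries, so the groups overlapped throughout. Means were 3.05 ± 0.298 CPM in shCK5-22 and 3.20 ± 0.542 CPM in shControl, with a log2 fold change of -0.07 (95% interval -0.38 to 0.24, edgeR adjusted p = 0.754). With 146 to 240 counts per library, the data remained compatible with any change inside that interval, and the sign turned without shControl replicate 3 (0.074). The log2 value was -0.016 without shCK5-22 replicate 1. PROCR, the endothelial protein C receptor and partner of thrombomodulin, did not pass either, at 11.5 ± 0.428 CPM in shCK5-22 and 10.7 ± 0.555 CPM in shControl (log2 fold change 0.098, edgeR adjusted p = 0.358).

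PROS1 (ENSG00000184500, chromosome 3, 93873033 to 93980003, minus strand) encodes protein S, a vitamin K-dependent cofactor of activated protein C and of tissue factor pathway inhibitor, and a ligand of the TAM receptor kinases. Its counts were 182, 184 and 187 in shCK5-22 libraries, against 114, 107 and 108 in shControl libraries. Scaled to depth these were 2.79, 3.08 and 3.54 CPM in shCK5-22 and 2.37, 1.64 and 1.71 CPM in shControl. The groups did not overlap, although the lowest shCK5-22 value lay close to the highest shControl value. PROS1 rose 1.65-fold in shCK5-22, at 3.14 ± 0.377 CPM against 1.91 ± 0.403 CPM in shControl (log2 fold change 0.73, SE 0.169, 95% interval 0.37 to 1.08, edgeR adjusted p = 0.00191). Its interval contains the size of the F3 change. The log2 value was 0.81 without shCK5-22 replicate 1 and ranged over 0.63 to 0.90 when each library was left out in turn. The pseudogene PROS2P shares 6.22% of the 50-base windows of PROS1 transcripts and had at most 2 counts in a library.

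F2R (ENSG00000181104, chromosome 5, 76716043 to 76735781, plus strand) encodes PAR1, the principal thrombin receptor. Its level was 7.85, 6.99 and 6.02 CPM in shCK5-22 libraries, against 4.81, 4.55 and 4.55 CPM in shControl libraries. All shCK5-22 libraries exceeded all shControl libraries, and the shCK5-22 libraries were the more spread. F2R rose 1.5-fold in shCK5-22, at 6.95 ± 0.917 CPM against 4.64 ± 0.147 CPM in shControl (log2 fold change 0.59, SE 0.112, 95% interval 0.36 to 0.82, edgeR adjusted p = 0.000268). Replicate 1 of shCK5-22 had the highest level, and without it the log2 fold change was 0.49 (edgeR adjusted p = 0.00163).

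F2RL1 (ENSG00000164251, chromosome 5, 76818933 to 76835315, plus strand) encodes PAR2, the receptor for trypsin-like proteases. Its level was 38.7, 36.8 and 36.3 CPM in shCK5-22 libraries, against 40.9, 42.1 and 44.1 CPM in shControl libraries. The groups lay next to each other without overlap. F2RL1 fell 1.14-fold in shCK5-22, at 37.3 ± 1.28 CPM against 42.4 ± 1.63 CPM in shControl (log2 fold change -0.19, SE 0.0475, 95% interval -0.28 to -0.09, edgeR adjusted p = 0.00422). Only 51.4% of all genes tested had a smaller change. The log2 value was -0.22 without shCK5-22 replicate 1.

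F2RL2 (ENSG00000164220, chromosome 5, 76615482 to 76623434, minus strand) encodes PAR3, a thrombin receptor that acts as a cofactor for cleavage of PAR4 in mouse platelets. It was listed at 0 in all 6 libraries, with the same limit as TFPI2. The gene lies within the locus of IQGAP2 on the other strand, and the 2 share 2.54% of the exon bases of F2RL2. F2RL3, which encodes PAR4 and completes the family, fell in shCK5-22 to 0.51 ± 0.227 CPM, against 1.07 ± 0.18 CPM in shControl (log2 fold change -1.06, SE 0.309, edgeR adjusted p = 0.0108). That call rests on 15 to 44 counts per shCK5-22 library and 56 to 70 per shControl library. It was lost without shCK5-22 replicate 2 (log2 fold change -0.73, edgeR adjusted p = 0.0576) and without shControl replicate 1 (edgeR adjusted p = 0.0545).

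**Figure D2:**
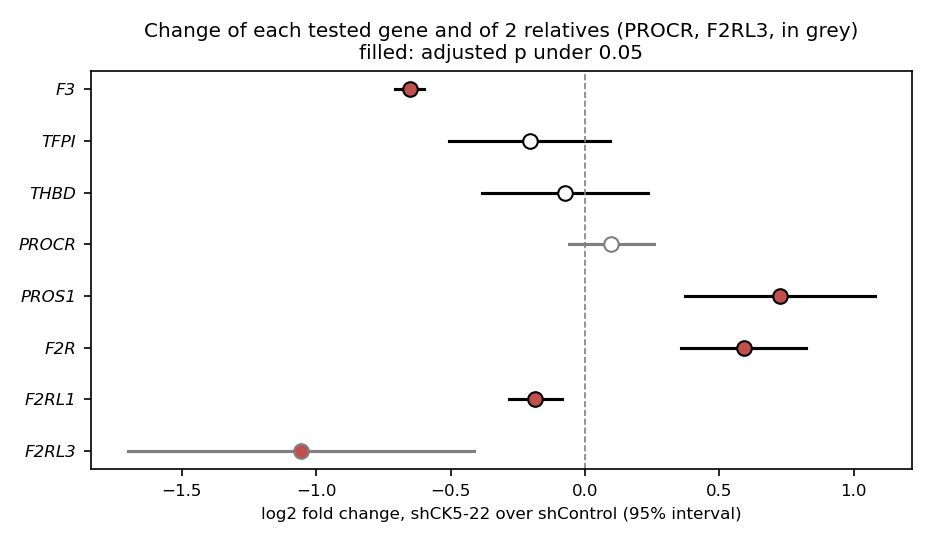
Log2 fold change of shCK5-22 over shControl with its 95% interval for the 6 tested genes (black) and the relatives PROCR and F2RL3 (grey); filled points passed an adjusted p of 0.05. PROS1 at 0.73 and F2R at 0.59 lie to the right, F3 at -0.65, F2RL1 at -0.19 and F2RL3 at -1.06 to the left, and the intervals of TFPI, THBD and PROCR span 0.

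Per kilobase of annotated exon the order of mean levels was the same in both groups: F3, F2RL1, F2R, THBD, PROS1 and TFPI. F2RL1 stood at 12.6 CPM per kb in shCK5-22 and 14.3 CPM per kb in shControl, far below F3, and F2R at 1.71 and 1.14 CPM per kb in the same groups. The libraries of F3, F2RL1 and F2R did not overlap in level per kb in either group. THBD ranged over 0.683 to 0.822 CPM per kb in shCK5-22 and 0.672 to 0.926 CPM per kb in shControl. PROS1 ranged over 0.513 to 0.65 CPM per kb in shCK5-22 and 0.301 to 0.436 CPM per kb in shControl, and TFPI over 0.223 to 0.254 and 0.249 to 0.318 CPM per kb in the same groups. THBD therefore lay above PROS1 in both groups, and PROS1 and TFPI overlapped in shControl. The order of these last 3 genes depends on the length used. Divided by the longest coding transcript, TFPI stood at 0.716 CPM per kb in shCK5-22 and 0.824 CPM per kb in shControl, PROS1 at 0.875 and 0.533, and THBD at 0.741 and 0.779.

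The balance between paired genes was read from the ratio of their counts within each library, which no scaling of library size can change. The count of F3 over that of TFPI was 234, 203 and 219 in shCK5-22 libraries, against 323, 325 and 256 in shControl libraries. All 3 shCK5-22 ratios lay below all 3 shControl ratios, and the mean log2 ratio was lower by 1.37-fold (log2 difference -0.46, exact two-sided permutation test, p = 0.1, n = 3 each). The count of F2R over that of F2RL1 was 0.203, 0.19 and 0.166 in shCK5-22 libraries, against 0.117, 0.108 and 0.103 in shControl libraries. Here all shCK5-22 ratios were the higher, by 1.7-fold (log2 difference 0.76, exact two-sided permutation test, p = 0.1). Adjusted over the 2 ratios both p-values were 0.1, the smallest that 3 against 3 libraries allow, so neither can pass 0.05 in this design. The first ratio carries the noise of TFPI, which had only 140 to 235 counts per library.

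**Figure D3:**
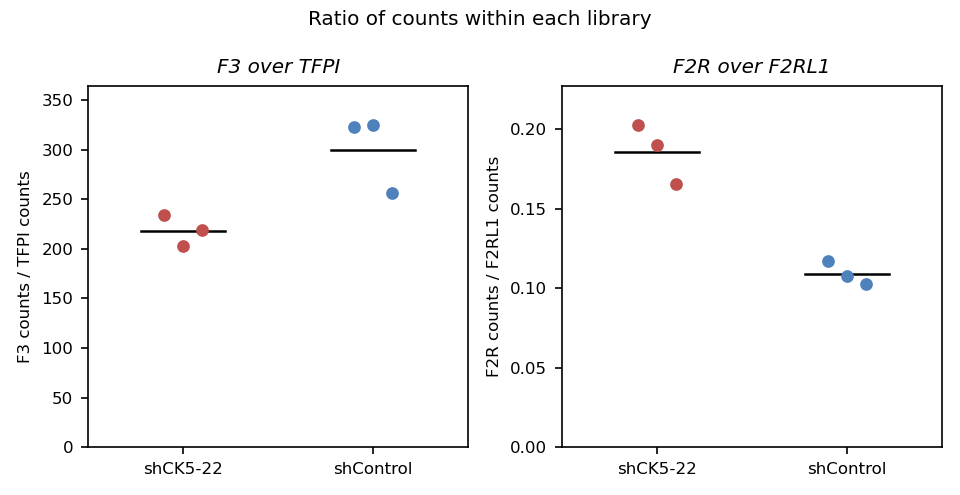
Ratio of counts within each library for F3 over TFPI (left) and F2R over F2RL1 (right), with shCK5-22 in red and shControl in blue; lines mark the geometric mean. The F3 to TFPI ratio runs from 203 to 234 in shCK5-22 and from 256 to 325 in shControl, and the F2R to F2RL1 ratio from 0.166 to 0.203 and from 0.103 to 0.117.

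Other coagulation factors mostly had few or no counts, and a 0 is again not read as absence. Of 16 genes of the cascade, 5 had enough counts to be tested, 0 rose and 2 fell, with a median log2 fold change of -0.12. The counts of this and each list below stand beside 34.2% of all genes tested that passed, 17.4% as higher and 16.8% as lower. F12, the contact factor, averaged 1.87 ± 0.179 CPM in shCK5-22 and 2.52 ± 0.276 CPM in shControl (log2 fold change -0.44, edgeR adjusted p = 0.0414). F8, the cofactor of factor IX, averaged 3.77 ± 0.448 CPM in shCK5-22 and 4.93 ± 0.503 CPM in shControl (log2 fold change -0.38, edgeR adjusted p = 0.0227). F12 lost its call without shCK5-22 replicate 1 or 2 or shControl replicate 2 or 3 (edgeR adjusted p up to 0.169). F8 lost its call without shCK5-22 replicate 3 or shControl replicate 1 or 3 (edgeR adjusted p up to 0.119). F7, whose product binds tissue factor, was listed at 0 in every library, and F10 had 13 to 20 counts per library.

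Among 16 other anticoagulants and genes of vitamin K processing, 12 were tested, 4 rose, 2 fell and 6 did not pass (median log2 fold change 0.012). GAS6, a vitamin K-dependent relative of protein S and a TAM receptor ligand, rose to 35.5 ± 1.36 CPM in shCK5-22, against 24.4 ± 0.829 CPM in shControl (log2 fold change 0.54, edgeR adjusted p = 5.47e-08). SERPINE2, the thrombin inhibitor protease nexin 1, rose to 40.6 ± 3.06 CPM in shCK5-22, against 28.3 ± 2.06 CPM in shControl (log2 fold change 0.53, edgeR adjusted p = 1.15e-06). VKORC1L1, a vitamin K epoxide reductase, fell to 37.9 ± 1.79 CPM in shCK5-22, against 53.7 ± 1.36 CPM in shControl (log2 fold change -0.50, edgeR adjusted p = 2.17e-08). The other fall was that of GGCX, the carboxylase that modifies protein S and GAS6 (log2 fold change -0.46, edgeR adjusted p = 3.69e-08), which is named after its values were seen.

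Of 11 receptor relatives, proteases that can activate the receptors and inhibitors of these, 9 were tested, 5 fell and 1 rose (median log2 fold change -0.36). TMPRSS4, a transmembrane serine protease, fell to 1.31 ± 0.126 CPM in shCK5-22, against 8.02 ± 0.512 CPM in shControl (log2 fold change -2.61, edgeR adjusted p = 1.26e-12). ST14, which encodes matriptase, an activator of PAR2, fell to 112 ± 3.66 CPM in shCK5-22, against 156 ± 2.74 CPM in shControl (log2 fold change -0.48, edgeR adjusted p = 2.4e-10). SPINT1, which encodes the matriptase inhibitor HAI-1, fell to 199 ± 6.18 CPM in shCK5-22, against 242 ± 3.93 CPM in shControl (log2 fold change -0.28, edgeR adjusted p = 2.41e-07).

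All 21 signal transducers of the receptors were tested, and 8 rose, 3 fell and 10 did not pass (median log2 fold change 0.081). GNAQ, the Gq subunit that couples PAR1 and PAR2 to phospholipase C, fell to 19.9 ± 0.242 CPM in shCK5-22, against 42.6 ± 0.786 CPM in shControl (log2 fold change -1.10, edgeR adjusted p = 2.97e-13). Its close relative GNA11 stood at 151 ± 1.64 CPM in shCK5-22 and 154 ± 0.373 CPM in shControl and did not pass (edgeR adjusted p = 0.44). GNA13, the subunit that leads to RHOA, rose by 0.34 on the log2 scale (edgeR adjusted p = 1.9e-06) and ARRB2, an arrestin of activated receptors, by 0.40 (edgeR adjusted p = 6.09e-05). Of 13 genes tied to the procoagulant state of tissue factor at the membrane, 2 rose, 3 fell and 8 did not pass (median log2 fold change -0.046). ANO6, the scramblase that exposes phosphatidylserine, rose by 0.28 (edgeR adjusted p = 3.12e-05). The flippase gene ATP11A fell by 0.31 (edgeR adjusted p = 2.31e-07) and SMPD1, acid sphingomyelinase, fell by 0.47 on the log2 scale (edgeR adjusted p = 3.63e-07).

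**Figure D4:**
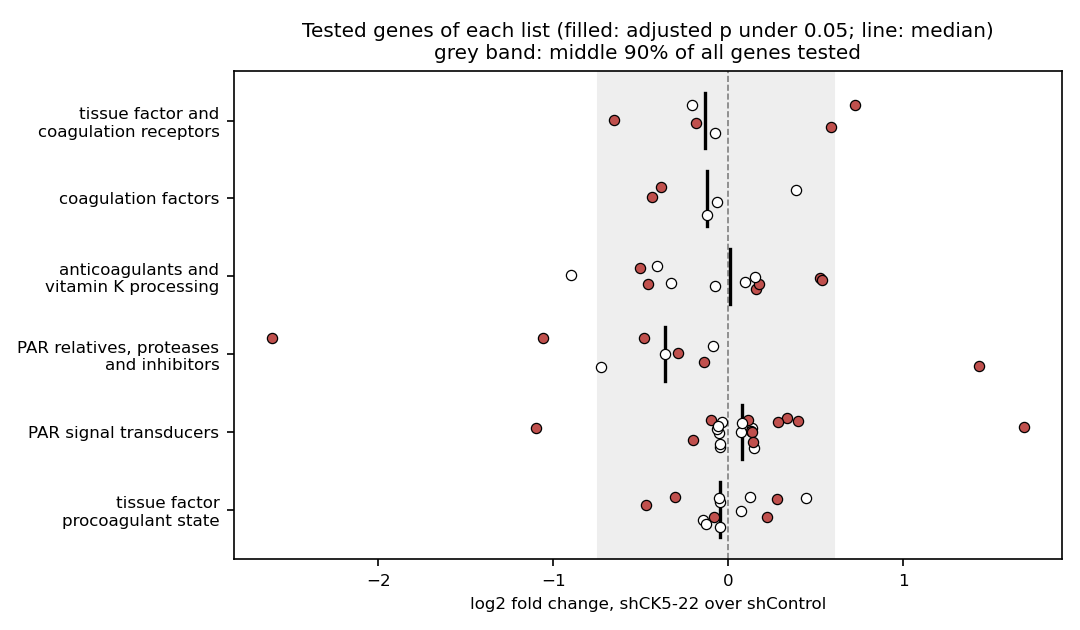
Log2 fold change of shCK5-22 over shControl for the tested genes of 6 groups, with points spread vertically for visibility; filled points passed an adjusted p of 0.05, black lines are medians and the grey band spans the middle 90% of all genes tested (-0.745 to 0.607). TMPRSS4 at -2.61, GNAQ at -1.10, F2RL3 at -1.06 and PROC at -0.90, which did not pass, lie to the left of the band. PLCB2 at 1.69, TMPRSS2 at 1.43 and PROS1 at 0.73 lie to its right.

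Thrombomodulin, PAR1 and the protein C receptor are also products of endothelial cells. Of 12 endothelial and platelet markers, 8 were tested, 0 rose and 1 fell, and their summed level ranged over 25.7 to 38.5 CPM in shCK5-22 and 29.7 to 37.6 CPM in shControl. CDH5 made up most of that sum, at 22.2 ± 5.23 CPM in shCK5-22 and 21.2 ± 2.3 CPM in shControl. ESAM averaged 5.57 ± 0.419 CPM in shCK5-22 and 5.18 ± 0.438 CPM in shControl. PECAM1, the marker that fell, averaged 2.15 ± 0.728 CPM in shCK5-22 and 5.02 ± 1.66 CPM in shControl. The endothelial receptor genes KDR, TEK and TIE1 averaged at most 0.483 CPM in either group, and the platelet genes GP9, PF4 and PPBP were listed at 0. Of 10 leukocyte markers, 4 were tested, 1 rose and 0 fell, with summed levels of 6.96 to 8.9 CPM in shCK5-22 and 6.55 to 6.96 CPM in shControl. Of 10 fibroblast markers, 6 were tested, 2 rose and 2 fell, with summed levels of 29.4 to 30.6 CPM in shCK5-22 and 33.2 to 34.8 CPM in shControl. COL1A1 made up most of that sum, at 27.0 ± 0.511 CPM in shCK5-22 and 32.0 ± 0.823 CPM in shControl. PDGFRB rose to 1.08 ± 0.271 CPM in shCK5-22, against 0.0518 ± 0.0471 CPM in shControl, on 46 to 80 counts per shCK5-22 library and 0 to 6 per shControl library (edgeR adjusted p = 5.81e-07). LUM rose to 0.373 ± 0.0958 CPM in shCK5-22, against 0.101 ± 0.051 CPM in shControl (edgeR adjusted p = 0.00745). The 2 that fell were COL1A1 (edgeR adjusted p = 0.00055) and FAP. FAP averaged 0.871 ± 0.0181 CPM in shCK5-22 and 1.59 ± 0.224 CPM in shControl (edgeR adjusted p = 0.00258). The part of these markers in the levels of THBD, F2R and PROS1 was not tested.

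The genes with a mean of at least 5 CPM whose log2 CPM followed F3 most closely over the 6 libraries were DCAF7 (Pearson r = 0.9998), SAMD9L, SEMA3B, ZNF512B and DTX3L (each 0.9996). DCAF7 averaged 102 CPM in shCK5-22 and 162 CPM in shControl, and SEMA3B, a secreted semaphorin, 33.7 and 89.2 CPM in the same groups. Such values are a description of 6 points in 2 groups that share the same contrast: 1665 of the 10456 genes compared had an r above 0.9.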

How the data were processed

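RNA from 6 BT20 libraries was sequenced, per the labels. The authors deposited 1 table of whole-number read counts per gene symbol. Per the submitters' processing notes, the tools included cutadapt, STAR, SAMtools and Cufflinks, with genome build GRCh38. Neither the counting tool nor its annotation or use of strand is stated there. Between 86.7% and 89.1% of counts from 1 to 20 in a library were even, and whether mates of a pair were counted separately is not stated.

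Of 56505 rows, 27 with a calendar date as symbol were left out. They held 0.167% to 0.175% of a library. Groups and replicate numbers came from the titles. The test was edgeR 4.0.16 (R 4.3.3), robust quasi-likelihood, with TMM scaling and filterByExpr. Two-sided p-values were adjusted (Benjamini-Hochberg) over the 18008 genes tested, at a threshold of 0.05. A standard error is the log2 fold change divided by the square root of F. The method was tested on simulated data. The labels name no separate cultures, so the spread behind each p-value may be technical.

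Coordinates and exon lengths come from GENCODE release 29 on GRCh38. The members and lists were chosen with earlier results of these data known. From each pathway list the text names up to 3 called genes averaging 1 CPM or more that changed most. PROCR, F2RL3, F7, F10, GNA11, GGCX, VKORC1 and the marker genes were added after their values were seen. Alternatives were other scalings (RLE, upper quartile, library size only), other filters, DESeq2 1.42.0, limma-voom 3.58.1, a threshold of 0.01, a replicate block and leaving out each library.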

Additional observations from a re-analysis of the deposited data

How the results depend on the processing

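Across 16 alternatives, 4 of the 6 tested genes passed in each, and F3, F2RL1, PROS1 and F2R kept their direction and call in all of them. Log2 fold changes ranged over -0.67 to -0.65 for F3, -0.22 to -0.16 for F2RL1, 0.63 to 0.90 for PROS1 and 0.49 to 0.68 for F2R. The highest edgeR, DESeq2 or limma adjusted p was 0.0433 for F2RL1 and 0.0175 for PROS1. TFPI stayed below 0 without passing (-0.27 to -0.08). THBD passed in none (-0.177 to 0.074 when single libraries were left out) and turned to 0.074 without shControl replicate 3, against -0.07 in the main test, so 1 library set its sign. All genes called numbered 6153, and 4382 to 6743 over the alternatives. The log2 difference of the F3 to TFPI ratio ranged over -0.57 to -0.40 and that of F2R to F2RL1 over 0.70 to 0.84. The labels do not say that replicate numbers pair libraries, so the main test used no block. Deviations from the group mean correlated at 0.065, 0.132 and -0.023 between same-numbered libraries of the groups. Between libraries of different number the correlations were -0.13 to 0.064. A replicate block gave 6743 calls and changed no call among the 6 genes. Halving the counts, chosen after seeing the data because most low counts are even, gave 6151 calls and F3 at -0.65.

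F12 was lost with no filter (edgeR adjusted p = 0.0535), with DESeq2 (0.063), at the 0.01 threshold and without shCK5-22 replicate 1 (0.125), shCK5-22 replicate 2 (0.0755), shControl replicate 2 (0.169) or shControl replicate 3 (0.108). F8 was lost at the 0.01 threshold and without shCK5-22 replicate 3 (0.119), shControl replicate 1 (0.0786) or shControl replicate 3 (0.114). The filter of at least 1 CPM in 3 libraries removed F2RL3 before the test, and its call was also lost at the 0.01 threshold. The cause was not tested.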

Other observations

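CDH5, the vascular cadherin gene, stood at 22.2 ± 5.23 CPM in shCK5-22 and 21.2 ± 2.3 CPM in shControl, a level well above that of the endothelial genes KDR, TEK and TIE1. PECAM1, another endothelial adhesion gene, averaged 2.15 ± 0.728 CPM in shCK5-22 and 5.02 ± 1.66 CPM in shControl (log2 fold change -1.20, edgeR adjusted p = 0.0429, no overlap between the groups). PLCB2, a phospholipase C isoform downstream of G proteins, was higher in shCK5-22 at 0.591 ± 0.135 CPM, against 0.181 ± 0.0365 CPM in shControl (log2 fold change 1.69, edgeR adjusted p = 0.0018), on 26 to 44 counts per shCK5-22 library and 8 to 14 per shControl library. TMPRSS2, a transmembrane protease, was higher in shCK5-22 at 0.711 ± 0.226 CPM, against 0.267 ± 0.0585 CPM in shControl (log2 fold change 1.43, edgeR adjusted p = 0.00369), the reverse of TMPRSS4. The TMPRSS2 call rests on 30 to 62 counts per shCK5-22 library and 14 to 16 per shControl library. Its highest value came from shCK5-22 replicate 1. These genes were named after their values were seen, and PECAM1, PLCB2 and TMPRSS2 were not recomputed under the alternatives.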
